A study of Homo sapiens with 9 samples.

Results

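The cyclin-dependent kinase inhibitor genes are described here as 8 genes of the 64253 counted: CDKN1A, CDKN1B and CDKN1C of the CIP/KIP family, CDKN2A, CDKN2B, CDKN2C and CDKN2D of the INK4 family, and CDKN3. They were chosen by symbol from textbook membership, and each symbol mapped to 1 Ensembl identifier. RNA was read from 9 libraries of IMR90, fibroblasts of human fetal lung with a limited life span in culture. Each of 3 groups had 3 libraries, lettered a, b and c. All cells were kept at 2% oxygen, were used at population doubling 30, received 2 lentiviral infections 24 hours apart, and were selected with puromycin at 3 ug/mL for 7 days. The control group carried pLKO.1 vector only, which the sample labels call empty and the treatment protocol calls GFP. In the shRRM2 group a hairpin targeted RRM2, a subunit of ribonucleotide reductase, the enzyme that supplies dNTPs, and the labels call these cells senescent from dNTP depletion. The shRRM2/shp16 group carried that hairpin and one against p16, a product of CDKN2A, and its cells are described as having bypassed that senescence. No library carried the p16 hairpin alone, and the labels name 1 hairpin per target. Nothing in the labels says that replicates were separate cultures, so p-values measure only the spread between these libraries, which may be technical.

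Cells enter and cross the division cycle when cyclins bind and switch on cyclin-dependent kinases (CDKs). INK4 proteins bind CDK4 and CDK6 and keep D-type cyclins from them, whereas CIP/KIP proteins bind whole cyclin-CDK complexes, above all those of CDK2. CDKN3 differs in kind: it is a phosphatase that removes the activating phosphate from CDK2. In fibroblasts, p21 (CDKN1A) and p16 (CDKN2A) are the inhibitors best known for the arrest of senescent cells. Much of the control of p27 (CDKN1B) and p21 acts on protein stability, which RNA counts do not measure.

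The promoter sequences below are shown because the results turn on genes whose RNA moved in opposite directions: CDKN1A and CDKN2B, which rose with the RRM2 hairpin, CDKN2D and CDKN3, which fell, and the CDKN2A start that lies nearest to CDKN2B. They were read from RefSeq promoter windows (GRCh38.p14), which covered 7 of the 8 genes in 10 windows, with CDKN1C the gene without one. Each is written 5′ to 3′ on the gene's own strand, and holds the bases before the start site that lie outside the gene's annotated exons. Capitals mark every match to 1 of 5 motifs searched on both strands of the 250 bases before a start: an E2F site (TTTCCCGC, TTTCGCGC, TTTGCCGC or TTTGGCGC), a CHR element, a CCAAT box (CCAAT), a GC box, and a TATA box. The CHR element was searched as TTTGAA and also in a second form, which reads TTCGAA. For the GC box the letters searched were GGGCGG, and for the TATA box they were TATAAA. A match on the opposite strand appears as its reverse complement. None of these motifs holds another, and 2 GC boxes can overlap by a base or more.
CDKN1A, chr6:36678464-36678657, plus strand: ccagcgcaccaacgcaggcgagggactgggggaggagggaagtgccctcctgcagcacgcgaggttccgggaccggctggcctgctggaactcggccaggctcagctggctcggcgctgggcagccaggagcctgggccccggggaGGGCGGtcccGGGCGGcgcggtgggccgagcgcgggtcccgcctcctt
CDKN2A, upstream start, chr9:21995325-21995574, minus strand: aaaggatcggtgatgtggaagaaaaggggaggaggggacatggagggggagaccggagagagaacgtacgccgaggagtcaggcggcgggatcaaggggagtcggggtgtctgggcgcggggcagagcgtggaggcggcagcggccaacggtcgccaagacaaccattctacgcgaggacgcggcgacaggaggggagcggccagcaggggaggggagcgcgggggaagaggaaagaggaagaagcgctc
CDKN2B, chr9:22009364-22009555, minus strand: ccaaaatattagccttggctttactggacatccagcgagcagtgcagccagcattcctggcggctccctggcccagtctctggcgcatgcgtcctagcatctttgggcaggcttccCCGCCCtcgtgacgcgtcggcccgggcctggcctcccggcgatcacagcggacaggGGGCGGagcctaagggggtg
CDKN2D, chr19:10569060-10569229, minus strand: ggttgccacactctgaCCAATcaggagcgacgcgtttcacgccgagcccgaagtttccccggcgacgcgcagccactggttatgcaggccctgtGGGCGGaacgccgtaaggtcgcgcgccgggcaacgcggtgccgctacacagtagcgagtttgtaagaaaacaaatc
CDKN3, chr14:54396757-54396848, plus strand: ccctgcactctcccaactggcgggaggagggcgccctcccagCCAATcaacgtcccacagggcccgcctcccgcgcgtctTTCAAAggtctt

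The full 250-base windows differed between the genes. CDKN1A held 4 GC boxes, 2 of which are in the printed stretch, and CDKN2B held 2. CDKN2D held 1 CCAAT box and 2 GC boxes, and CDKN1B held 2 CCAAT boxes and 1 GC box. CDKN3 was the only gene of the 7 with a CHR match, at positions -170 to -165 from its start, and it also held 2 CCAAT boxes. In the upstream window of CDKN2A, where the transcript of p14ARF begins, none of the 5 motifs was matched, and the window at the downstream start held 1 GC box. The 3 windows of CDKN2C held no match, 5 GC boxes, and 1 CCAAT box with 1 GC box. No window of these genes matched an E2F site or a TATA box as spelled. Among all 34796 windows of the same length, 2.78% held an E2F site, 14.4% a CHR element, 32.0% a CCAAT box, 42.6% a GC box and 10.8% a TATA box. A match describes letters only and does not show that a protein binds there.

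Gene-assigned counts ranged from 15770895 to 24873291 per library. RRM2 itself was at 485 ± 5.23 CPM in control (SD, n = 3; CPM is a count scaled to a common library total, here with TMM factors), 62.1 ± 1.86 in shRRM2 and 177 ± 3.00 in shRRM2/shp16, so RRM2 RNA was higher with both hairpins than with the RRM2 hairpin alone. All 12 fibroblast markers were detected, with a summed level of 35853 to 37066 CPM in control, 32950 to 33932 in shRRM2 and 29992 to 30782 in shRRM2/shp16. KRT5, SFTPC, SCGB1A1, CD3E, MS4A1 and SOX10, some of the markers of epithelial, lymphoid and neural cells, had 0 reads in every library. Other markers on those lists had reads. The 7 leukocyte markers summed to 3.52 to 4.41 CPM in control, 4.90 to 6.08 in shRRM2 and 4.03 to 4.81 in shRRM2/shp16. The 4 neural markers summed to 7.71 to 10.1, 9.35 to 11.5 and 5.33 to 6.22 CPM in the same order. The 8 epithelial markers summed to 1.51 to 2.29, 2.08 to 2.81 and 3.93 to 5.59 CPM in the 3 groups, and the 4 smooth muscle markers to 349 to 368, 299.9 to 312 and 137 to 148 CPM. The 6 endothelial markers summed to 65.4 to 70.6, 68.0 to 73.1 and 115 to 124 CPM, most of it TEK. Some uniquely aligned reads were assigned by the counting to no annotated feature, which may include reads in introns. Their share was 17.6% to 18.9% in control, 27.7% to 28.8% in shRRM2 and 23.5% to 24.4% in shRRM2/shp16. The part of these differences in the results was not tested.

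With the RRM2 hairpin the family split. CDKN1A and CDKN2B rose, CDKN1B, CDKN2C, CDKN2D and CDKN3 fell, and CDKN2A did not pass the test in shRRM2 against control. When the p16 hairpin was added, 5 genes rose and 2 fell. CDKN1B, CDKN2B, CDKN2C, CDKN2D and CDKN3 were higher in shRRM2/shp16 than in shRRM2, and CDKN1A and CDKN2A were lower. RRM2 itself rose there too, with a log2 fold change of 1.51 ± 0.04 (SE; edgeR, adjusted p = 7.92e-34). That comparison therefore differs in RRM2 level as well as in the p16 hairpin, and the part of each was not tested. Wording such as "with the p16 hairpin added" names the comparison and not a cause. In shRRM2/shp16 against control, CDKN1A and CDKN2B were higher, CDKN2A, CDKN2C, CDKN2D and CDKN3 were lower, and CDKN1B did not pass. Calls are those of edgeR's quasi-likelihood test at a Benjamini-Hochberg adjusted p of 0.05 over 16561 genes, and 7 of the 8 genes had enough reads to be tested. The 3 comparisons share libraries, so they are not independent of each other.

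**Figure D1:**
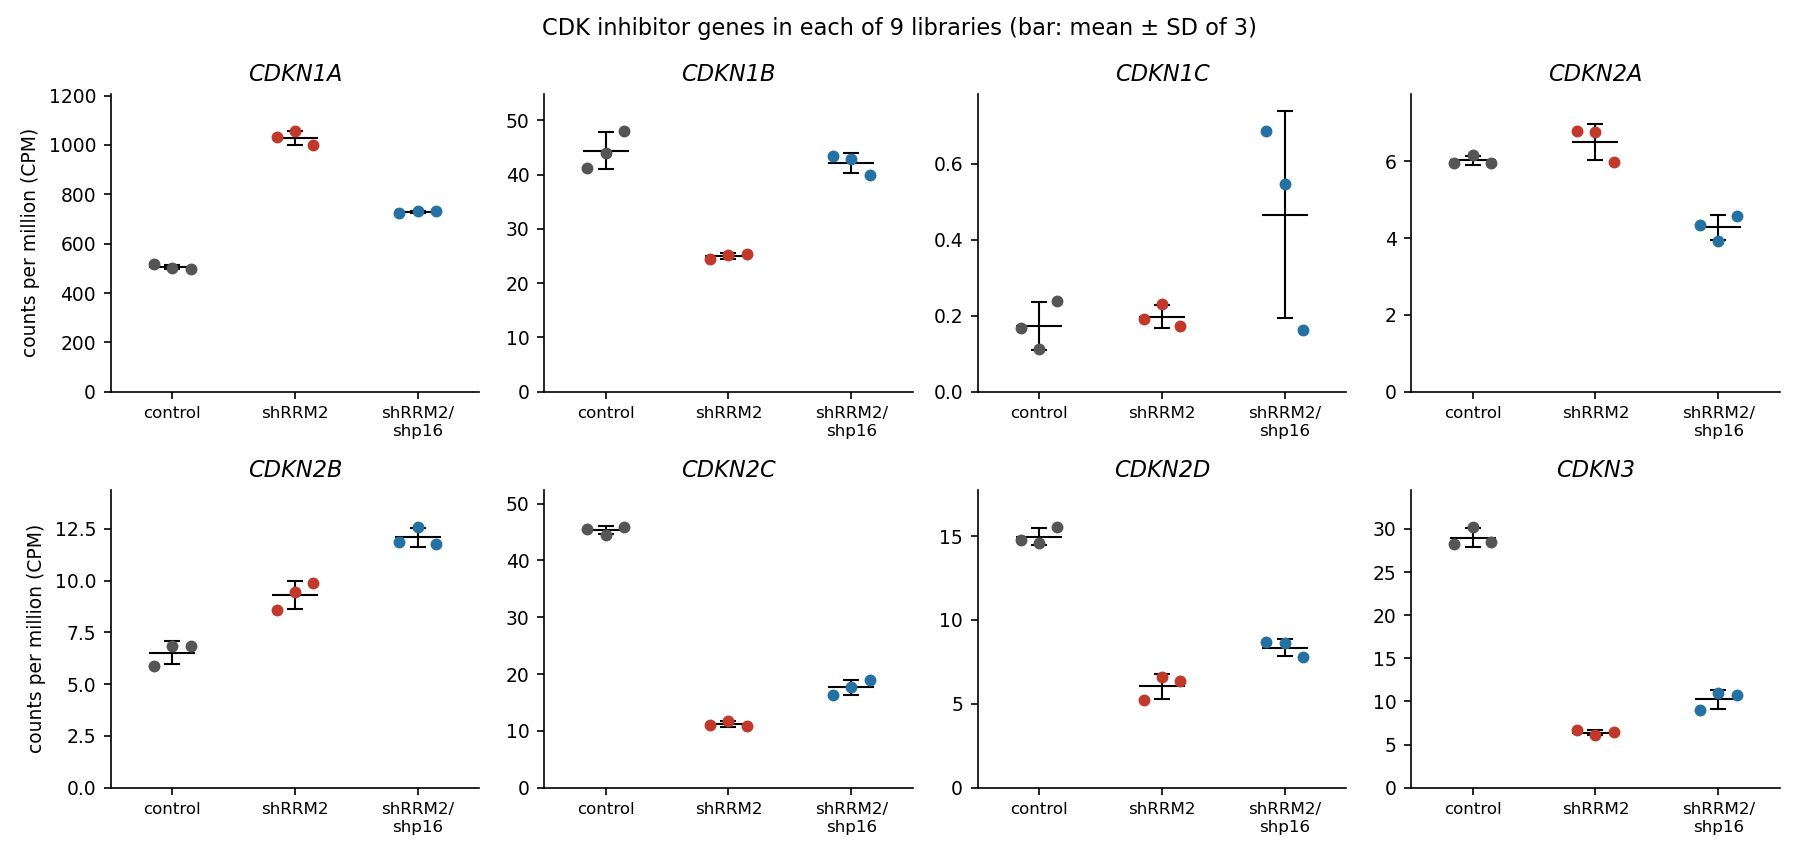
Level of each CDK inhibitor gene in CPM (vertical axes, each from 0) in the 3 groups, with 1 point per library and a bar for the mean ± SD of 3. The control and shRRM2 points of CDKN1A, CDKN1B, CDKN2B, CDKN2C, CDKN2D and CDKN3 do not overlap, while CDKN1C stays below 1 CPM in every library.

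These counts stand against many changes in the whole data. In shRRM2 against control 6 of 7 genes were called where 60.9% of all tested genes were, in shRRM2/shp16 against shRRM2 7 of 7 where 61.1% were, and in shRRM2/shp16 against control 6 of 7 where 62.4% were, so the share called is not by itself a result about this family. Of the 7, 2, 5 and 2 were called higher in these comparisons, where 29.0%, 31.9% and 30.0% of all genes were, and 4, 2 and 4 lower, where 31.8%, 29.1% and 32.4% were. The libraries of the groups did not overlap for 6, 7 and 6 of the 7, where 63.6%, 64.7% and 66.2% of all genes did not overlap. Sizes in shRRM2 against control were larger than over all genes: 4 of 7 were called at 2-fold or more, where 10.1% of all genes were. CDKN1A was the 1 called higher at that size, where 6.81% of all genes were, and CDKN2C, CDKN2D and CDKN3 were the 3 called lower, where 3.26% were. The median size of the log2 fold change was 1.03 against 0.32 over all genes. In shRRM2/shp16 against shRRM2 none of the 7 reached 2-fold, where 11.8% of all genes did, and the median size was 0.60 against 0.32. In shRRM2/shp16 against control 2 of 7 reached it, CDKN2C and CDKN3, both lower, where 12.6% of all genes did. The median signed log2 fold changes of the 7 were -0.82, 0.46 and -0.49 in the 3 comparisons, and those of all genes lay between 0.00 and 0.01. Bulk RNA cannot tell fewer cells of a kind from less RNA per cell.

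**Figure D2:**
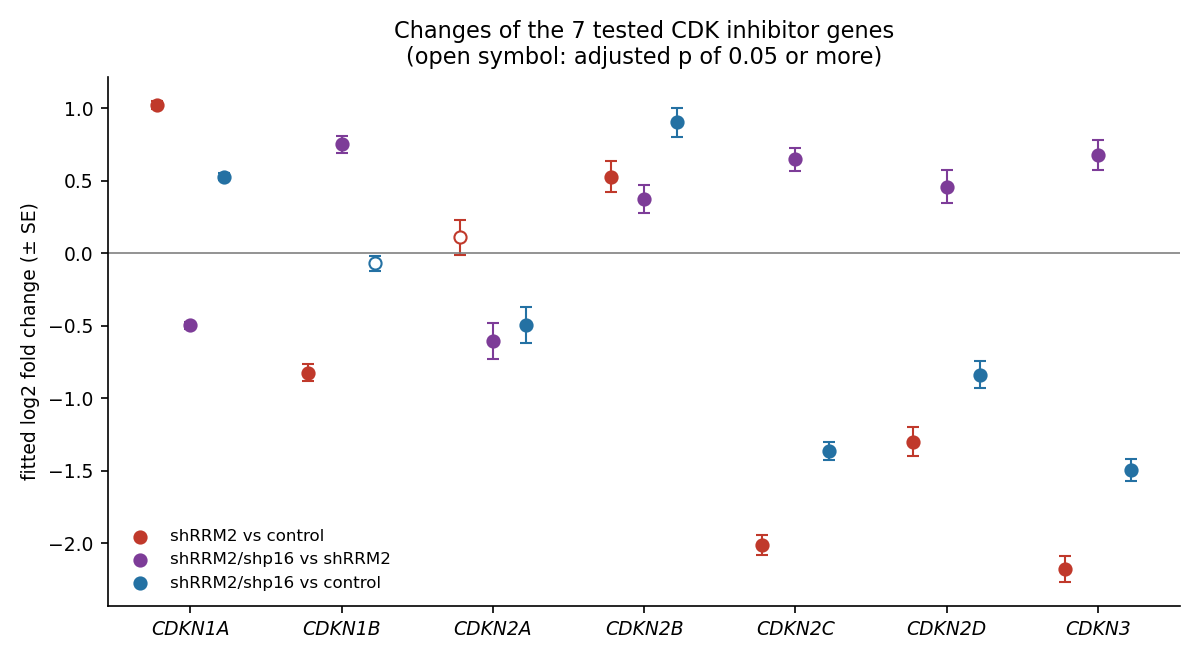
Fitted log2 fold change with its SE (vertical axis) for the 7 tested genes (horizontal axis) in the 3 comparisons, with open symbols where the adjusted p was 0.05 or more. CDKN2C and CDKN3 lie lowest in shRRM2 against control, at -2.01 and -2.18, and CDKN1A highest, at 1.03.

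CDKN1A encodes p21, which binds and inhibits cyclin-CDK2 complexes, and lies on chromosome 6 (GRCh38 chr6:36676460-36687339, plus strand). It was counted at 516, 499.9 and 499.1 CPM in the control libraries, at 1031, 1057 and 998 CPM in the shRRM2 libraries, and at 724, 733 and 730.4 CPM in the shRRM2/shp16 libraries. The 3 groups did not overlap, with shRRM2 highest and shRRM2/shp16 in between. The log2 fold change was 1.03 ± 0.03 (SE) in shRRM2 against control (edgeR, adjusted p = 4.97e-32). With the p16 hairpin added it fell by 0.50 ± 0.03 (edgeR, adjusted p = 6.21e-21), and it stayed 0.53 ± 0.03 above control (edgeR, adjusted p = 8.77e-22). DINOL, a noncoding gene on the other strand, shares 146 exon bases with CDKN1A, and was not analysed here.

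CDKN1B encodes p27, which holds cyclin E-CDK2 in check in resting cells, and lies at chr12:12715058-12722371 on the plus strand. Its level was 41.3, 43.9 and 48.1 CPM in control, 24.4, 25.3 and 25.3 CPM in shRRM2, and 43.4, 42.9 and 40.0 CPM in shRRM2/shp16. All 3 shRRM2 libraries were below the 6 others, and the control and shRRM2/shp16 libraries overlapped. CDKN1B fell by 0.82 ± 0.06 (log2, SE) with the RRM2 hairpin (edgeR, adjusted p = 6.79e-16) and rose by 0.75 ± 0.06 with the p16 hairpin added (edgeR, adjusted p = 1.13e-14). Between shRRM2/shp16 and control the difference was -0.07, with a 95% interval of -0.18 to 0.04 (edgeR, adjusted p = 0.261). AC008115.3, a noncoding gene annotated inside a CDKN1B intron on the same strand, had 16 to 45 reads per library.

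CDKN1C encodes p57, an imprinted inhibitor, and lies at chr11:2883213-2885773 on the minus strand. It had 4, 2 and 4 reads in the control libraries, 3, 4 and 3 in shRRM2, and 13, 11 and 3 in shRRM2/shp16. These are 0.173 ± 0.063, 0.198 ± 0.030 and 0.465 ± 0.272 CPM (SD, n = 3), and the groups overlapped, since shRRM2/shp16 replicate c had as few reads as the other groups. It did not pass the filter on low counts. Exact permutation tests of its CPM gave p = 0.6 for shRRM2 against control, p = 0.4 for shRRM2/shp16 against shRRM2 and p = 0.3 for shRRM2/shp16 against control, where 3 libraries against 3 cannot go below 0.1. With no filter, edgeR gave a log2 difference of 1.39 between shRRM2/shp16 and control (adjusted p = 0.0447). In the same unfiltered fit this was lost without control replicate a (adjusted p = 0.116) or b (adjusted p = 0.151), and without shRRM2/shp16 replicate a (adjusted p = 0.332) or b (adjusted p = 0.159). Against shRRM2 the unfiltered difference was 1.23 (edgeR, adjusted p = 0.0919), and 1.62 without shRRM2/shp16 replicate c (adjusted p = 0.0202). At this depth no difference in CDKN1C was established.

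CDKN2A encodes p16, the INK4 protein that the second hairpin targets, and from another first exon p14ARF, which binds MDM2. It lies at chr9:21967753-21995301 on the minus strand. Gene-level reads cannot separate the 2 products. It was counted at 5.95, 6.15 and 5.96 CPM in control, 6.79, 6.75 and 5.97 CPM in shRRM2, and 4.33, 3.93 and 4.57 CPM in shRRM2/shp16. The control and shRRM2 libraries overlapped, and all 3 shRRM2/shp16 libraries lay below them. In shRRM2 against control the log2 difference was 0.11, with a 95% interval of -0.13 to 0.35 (edgeR, adjusted p = 0.431). In shRRM2/shp16 it fell by 0.60 ± 0.13 (SE) against shRRM2 (edgeR, adjusted p = 7.01e-05) and by 0.49 ± 0.13 against control (edgeR, adjusted p = 7.27e-04). These values rest on 79 to 142 reads per library.

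CDKN2B encodes p15, an INK4 protein known as a target of TGF-beta signalling, and lies at chr9:22002903-22009363 on the minus strand, 7602 bases from CDKN2A. Its level was 5.87, 6.82 and 6.85 CPM in control, 8.57, 9.46 and 9.87 CPM in shRRM2, and 11.9, 12.6 and 11.8 CPM in shRRM2/shp16. The 3 groups did not overlap, and unlike CDKN1A the gene was highest in the group with both hairpins. It rose by 0.53 ± 0.11 (log2, SE) in shRRM2 against control (edgeR, adjusted p = 3.84e-05). It rose by a further 0.38 ± 0.10 in shRRM2/shp16 against shRRM2 (edgeR, adjusted p = 7.10e-04), which placed it 0.91 ± 0.10 above control (edgeR, adjusted p = 9.35e-11).

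The neighbouring CDKN2B and CDKN2A therefore moved apart. The ratio of CDKN2B to CDKN2A reads, which needs no library scaling, was 0.986, 1.11 and 1.15 in the control libraries, 1.26, 1.40 and 1.65 in shRRM2, and 2.74, 3.20 and 2.58 in shRRM2/shp16. The 3 groups did not overlap, with near equal reads in control and the largest excess of CDKN2B in shRRM2/shp16. The mean log2 ratio differed by 0.41 between shRRM2 and control, by 0.98 between shRRM2/shp16 and shRRM2, and by 1.39 between shRRM2/shp16 and control. Each exact permutation test (two-sided) gave p = 0.1, the smallest that 3 against 3 allows. The p16 hairpin targets CDKN2A, 1 side of this ratio, and CDKN2B on its own also rose in both comparisons with control.

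CDKN2B-AS1, the antisense noncoding RNA of the locus known as ANRIL, overlaps both genes and shares 341 exon bases with CDKN2A and none with CDKN2B. It had 30 to 68 reads per library, and was at 1.97 ± 0.36 CPM in control, 3.67 ± 0.32 in shRRM2 and 2.49 ± 0.51 in shRRM2/shp16 (SD, n = 3). It rose by 0.87 ± 0.19 (log2, SE) with the RRM2 hairpin (edgeR, adjusted p = 1.05e-04), fell by 0.57 ± 0.18 with the p16 hairpin added (edgeR, adjusted p = 0.00663), and was not different from control in shRRM2/shp16 by the test (edgeR, log2 difference 0.31, adjusted p = 0.179). The strand setting of the counting is not given in the sources used here, so reads in the shared bases cannot be assigned to a strand with certainty. MTAP, the methylthioadenosine phosphorylase gene on the other side of CDKN2A, fell by 0.26 in shRRM2 against control (edgeR, adjusted p = 2.80e-05) and rose by 0.27 in shRRM2/shp16 against shRRM2 (edgeR, adjusted p = 1.13e-05).

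**Figure D3:**
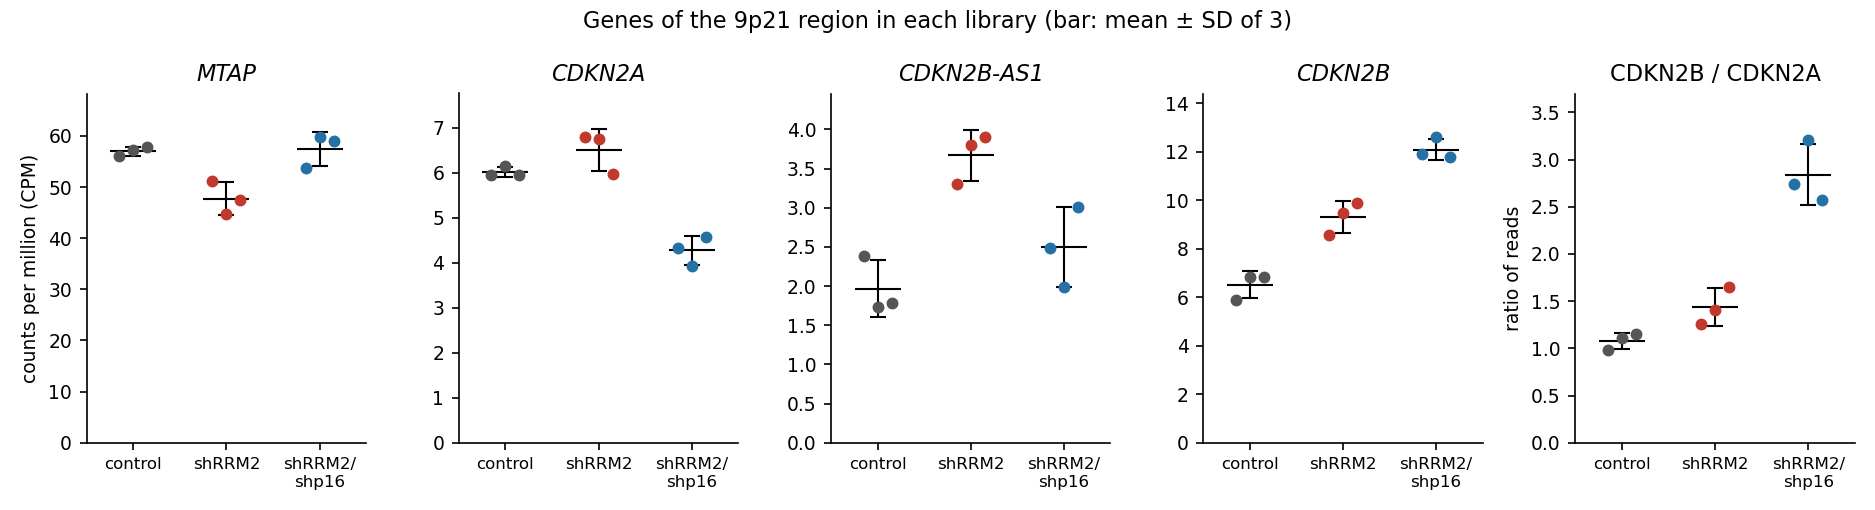
CPM (vertical axes from 0) of MTAP, CDKN2A, CDKN2B-AS1 and CDKN2B in the 3 groups, and at right the ratio of CDKN2B to CDKN2A reads, with points for libraries and bars for the mean ± SD of 3. CDKN2A is lowest and CDKN2B highest in shRRM2/shp16, where the ratio lies between 2.58 and 3.20.

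CDKN2C encodes p18, another INK4 protein, and lies at chr1:50960745-50974633 on the plus strand. It was at 45.5, 44.6 and 45.9 CPM in control, 11.0, 11.8 and 10.9 CPM in shRRM2, and 16.3, 17.8 and 18.9 CPM in shRRM2/shp16. The groups did not overlap, and the shRRM2/shp16 libraries stayed far nearer to shRRM2 than to control. CDKN2C fell by 2.01 ± 0.07 (log2, SE) with the RRM2 hairpin (edgeR, adjusted p = 1.81e-27), rose by 0.65 ± 0.08 with the p16 hairpin added (edgeR, adjusted p = 2.16e-09), and remained below control, with a log2 fold change of -1.36 ± 0.06 (edgeR, adjusted p = 2.24e-23).

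CDKN2D encodes p19, the INK4 protein whose level is known to cycle with cell division, and lies at chr19:10566462-10569059 on the minus strand. Its level was 14.8, 14.6 and 15.5 CPM in control, 5.21, 6.58 and 6.37 CPM in shRRM2, and 8.66, 8.61 and 7.79 CPM in shRRM2/shp16. The groups kept the same order as for CDKN2C, with no overlap. It fell by 1.30 ± 0.10 (log2, SE) with the RRM2 hairpin (edgeR, adjusted p = 4.57e-15) and rose by 0.46 ± 0.11 with the p16 hairpin added (edgeR, adjusted p = 4.12e-04). Against control the group with both hairpins was lower, with a log2 fold change of -0.84 ± 0.09 (edgeR, adjusted p = 7.87e-11).

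CDKN3, the phosphatase that acts on CDK2, lies at chr14:54396849-54420218 on the plus strand and changed most of the 7 in shRRM2 against control. It was counted at 28.2, 30.2 and 28.5 CPM in control, 6.66, 6.11 and 6.43 CPM in shRRM2, and 8.98, 11.0 and 10.7 CPM in shRRM2/shp16. Again shRRM2 was lowest and shRRM2/shp16 between, without overlap. CDKN3 fell by 2.18 ± 0.09 (log2, SE) with the RRM2 hairpin (edgeR, adjusted p = 6.50e-25) and rose by 0.68 ± 0.10 with the p16 hairpin added (edgeR, adjusted p = 3.04e-07). It remained below control, with a log2 fold change of -1.50 ± 0.08 (edgeR, adjusted p = 2.74e-21).

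Levels between genes were compared per length, as CPM per kilobase of merged exons (RPKM). In control CDKN1A was highest at 166 RPKM, followed by CDKN1B and CDKN3 at 15.8 each, whose libraries overlapped, then CDKN2C at 13.7, CDKN2D at 9.96, CDKN2B at 1.60, CDKN2A at 1.39 and CDKN1C at 0.0696. In shRRM2 the order was CDKN1A at 337, CDKN1B at 8.89, then CDKN2D at 4.03, CDKN3 at 3.49 and CDKN2C at 3.39, whose neighbours in that order overlapped, and CDKN2B at 2.29, CDKN2A at 1.50 and CDKN1C at 0.0798. In shRRM2/shp16 CDKN1A was at 239, CDKN1B at 15.0, CDKN3, CDKN2D and CDKN2C at 5.58, 5.56 and 5.32 with overlap between neighbours, CDKN2B at 2.98, CDKN2A at 0.988 and CDKN1C at 0.188. Merged exons count every annotated transcript, so a gene with many alternative exons, such as CDKN2A with 14 transcripts, has its level understated. Group values deposited by the authors (FPKM, another level per length) gave another rank. They put CDKN2A at 8.38 in shRRM2, above CDKN2C at 5.81, CDKN2B at 5.06 and CDKN2D at 4.51. In shRRM2/shp16 they put CDKN2A at 5.72, below CDKN2B at 6.26. The authors' values put CDKN3 at 11.8 in shRRM2 and 21.8 in shRRM2/shp16, next below CDKN1B at 13.9 and 22.9. The rank of CDKN2A among the INK4 genes, and how far CDKN3 lies from CDKN2C and CDKN2D, therefore depend on the measure.

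CDKN1A made up most of the family's RNA per length, and more so with the RRM2 hairpin. Its share of the summed RPKM of the 8 genes was 74.0% ± 0.93 in control, 93.4% ± 0.24 in shRRM2 and 87.0% ± 0.24 in shRRM2/shp16 (SD, n = 3). The other 7 genes together summed to 58.3 ± 1.75, 23.7 ± 0.73 and 35.6 ± 0.86 RPKM in the same order of groups. The CIP/KIP genes summed to 181 ± 2.31, 346 ± 9.75 and 254 ± 1.40 RPKM, whereas the INK4 genes summed to 26.6 ± 0.56, 11.2 ± 0.69 and 14.8 ± 0.25 RPKM. The 2 sums moved in opposite directions, but not all members did. CDKN1A, at 166, 337 and 239 RPKM, made up most of the CIP/KIP sum. CDKN1B fell and then rose, as the INK4 sum did, and CDKN2B of the INK4 genes rose with the RRM2 hairpin. Within the INK4 genes, CDKN2C made up 51.3% in control, 30.3% in shRRM2 and 35.8% in shRRM2/shp16. CDKN2B made up 6.03%, 20.4% and 20.1%, and CDKN2A 5.23%, 13.4% and 6.66%. CDKN2D kept 37.4%, 35.8% and 37.5%. These sums and shares are descriptions of the levels above, with no test of their own. They rest on the merged exon lengths, so the INK4 shares would differ under the authors' FPKM values.

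**Figure D4:**
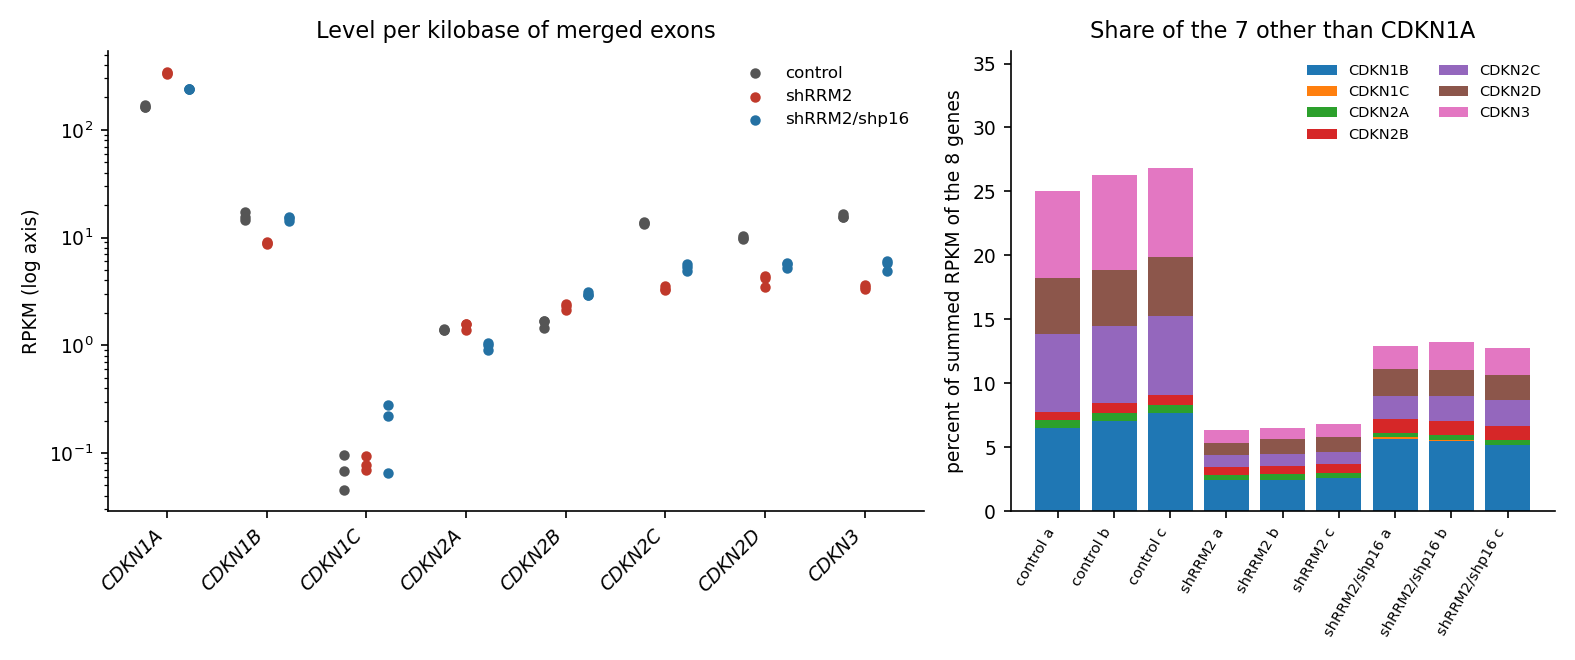
Left: RPKM on a log axis for each gene, with 1 point per library coloured by group. Right: share in percent of the summed RPKM of the 8 genes taken by the 7 other than CDKN1A in each library, where the bars are tallest in control and shortest in shRRM2, since CDKN1A takes 74.0% and 93.4% of the sum there.

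The kinases and cyclins that these proteins act on also split by type. Of 14 partner genes 13 were tested, with CCNA1, at 0 to 3 reads per library, below the filter. In shRRM2 against control 6 rose and 7 fell, where 29.0% of all genes were called higher and 31.8% lower. Among the falls, CDK5 was near the threshold and its libraries overlapped (edgeR, adjusted p = 0.0395). With RLE size factors or DESeq2, 6 partner genes rose and 6 fell. In shRRM2/shp16 against shRRM2, 6 rose and 7 fell, where 31.9% and 29.1% of all genes did. In shRRM2/shp16 against control 1 rose and 11 fell, where 30.0% and 32.4% of all genes did, and CDK5 did not pass the test. The medians of the 13 log2 fold changes were -0.19, -0.42 and -0.80.

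The D-type and E-type cyclins, which start the cycle with CDK4, CDK6 and CDK2, all rose with the RRM2 hairpin and all fell below control with both hairpins. CCND2 was at 44.4 ± 1.25 CPM in control, 126 ± 2.49 in shRRM2 and 36.7 ± 0.94 in shRRM2/shp16 (SD, n = 3), a log2 fold change of 1.51 and then of -1.78. CCND1 was at 1429 ± 56.1, 1974 ± 31.1 and 714 ± 9.64 CPM. CCNE1 was at 7.87 ± 0.59, 13.1 ± 0.72 and 5.50 ± 0.45 CPM, and CCNE2 at 11.5 ± 0.13, 14.0 ± 1.11 and 5.49 ± 0.06 CPM. Among these genes, therefore, shRRM2/shp16 was not between the other groups, unlike CDKN1A, CDKN2C, CDKN2D and CDKN3. The 3 D-type cyclin genes summed to 1561 ± 55.0, 2212 ± 31.4 and 809.98 ± 8.72 CPM.

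The cyclins of later phases went with CDKN2C, CDKN2D and CDKN3. CCNA2, which acts in S phase, was at 119 ± 3.03 CPM in control, 34.7 ± 1.33 in shRRM2 and 46.7 ± 1.24 in shRRM2/shp16. CCNB1, which drives mitosis with CDK1, was at 192 ± 6.96, 48.7 ± 0.61 and 78.9 ± 2.23 CPM, and CCNB2 at 87.2 ± 1.16, 26.2 ± 1.57 and 36.1 ± 1.20 CPM. CDK1 was at 116 ± 2.70, 37.4 ± 1.44 and 56.8 ± 1.90 CPM. All 4 fell with the RRM2 hairpin, with log2 fold changes of -1.98 (CCNB1), -1.78 (CCNA2), -1.73 (CCNB2) and -1.64 (CDK1), and rose with the p16 hairpin added. The 2 kinases that INK4 proteins bind moved in opposite directions. CDK4 was at 134 ± 2.67, 77.9 ± 2.17 and 98.8 ± 2.88 CPM, with a log2 fold change of -0.78 when RRM2 was targeted, of 0.34 when the p16 hairpin was added, and of -0.44 with both hairpins against control. CDK2, the main kinase that CIP/KIP proteins bind, fell in all 3 comparisons, with log2 fold changes of -0.24, -0.56 and -0.80. CDK6 was at 278 ± 14.7, 465 ± 17.6 and 346 ± 1.15 CPM. It was the 1 partner gene above control in shRRM2/shp16, with a log2 fold change of 0.32, after 0.74 with the RRM2 hairpin and -0.42 when the p16 hairpin was added.

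**Figure D5:**
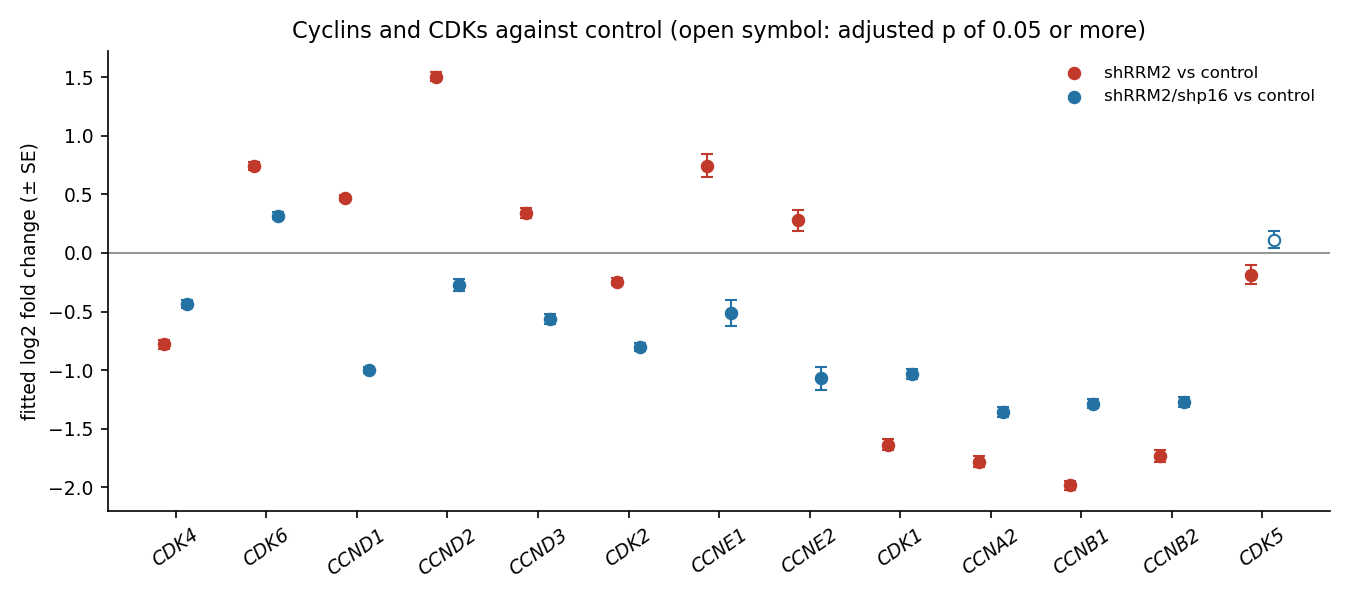
Fitted log2 fold change against control with its SE (vertical axis) for the 13 tested kinases and cyclins in shRRM2 and in shRRM2/shp16, with open symbols where the adjusted p was 0.05 or more. The D-type and E-type cyclins lie above 0 in shRRM2 and below 0 in shRRM2/shp16, while CCNA2, CCNB1, CCNB2 and CDK1 lie below 0 in both.

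A list of 38 genes known to make, silence or destroy the inhibitors gave 36 tested, with TP63 and TP73 below the filter. In shRRM2 against control 6 rose, 20 fell and 10 did not pass. In shRRM2/shp16 against shRRM2 16 rose, 11 fell and 9 did not pass, and in shRRM2/shp16 against control 10 rose, 16 fell and 10 did not pass. These are 26, 27 and 26 of 36 called, somewhat above the 60.9%, 61.1% and 62.4% of all genes. Whether the share called differs for this list was not tested. By direction, all genes were called higher in 29.0%, 31.9% and 30.0% and lower in 31.8%, 29.1% and 32.4%. The medians were -0.12, 0.12 and 0.00, and the list's median size was 0.35, 0.36 and 0.30 against 0.32, 0.32 and 0.34 over all genes.

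FOXO1, a forkhead factor that activates inhibitor genes, had the largest rise of the list in shRRM2 against control, at a low level, and was singled out after its values were seen. FOXO1 was at 1.06 CPM in control, 4.51 in shRRM2 and 3.56 in shRRM2/shp16, a log2 fold change of 2.07 in shRRM2 against control (edgeR, adjusted p = 2.11e-12). MDM2, a ubiquitin ligase that p14ARF binds, was at 217 ± 13.8, 376 ± 8.37 and 342 ± 9.30 CPM. It rose by 0.80 with the RRM2 hairpin and fell by 0.14 when the p16 hairpin was added. ETS1 and ETS2, activators of CDKN2A, parted in shRRM2/shp16. Against shRRM2 their log2 fold changes were -0.65 and 0.94, and against control they were -0.80 and 0.97.

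The regulator list labels 12 genes as repressors of the inhibitors: EZH2, SUZ12, EED, BMI1, CBX7, CBX8, RNF2, ID1, MYC, ZBTB17, TFAP4 and HDAC1. That label is the list's own, and ZBTB17 for one is not a repressor in every setting. Of the 12, 9 fell and 0 rose in shRRM2 against control, where 29.0% of all genes were called higher and 31.8% lower. With the p16 hairpin added, 7 rose and 0 fell, where 31.9% and 29.1% of all genes did, and against control 1 rose and 5 fell, where 30.0% and 32.4% did. Genes of protein turnover also fell in shRRM2 against control, with 3 higher and 8 lower of 12. Of 9 tested activators 1 rose and 3 fell there, and the 2 noncoding genes rose. In shRRM2/shp16 against shRRM2 the activators gave 5 higher and 3 lower, and the turnover genes 3 and 6. Whether these groups of the list differ was not tested. EZH2, the histone methyltransferase that silences the INK4 locus, had a log2 fold change of -1.15 ± 0.06 (SE) in shRRM2 against control, and its log2 fold change in shRRM2/shp16 against control was -1.03. TFAP4, a repressor of CDKN1A, and ID1, which blocks activation of CDKN2A, rose by 1.19 and 1.03 with the p16 hairpin added. Their log2 fold changes in shRRM2 against control had been -1.05 and -1.08. Neither passed in shRRM2/shp16 against control (edgeR, adjusted p = 0.162 and 0.243). KDM6B, a demethylase that removes the EZH2 mark, rose by 1.12 in shRRM2/shp16 against shRRM2 and stood 1.02 above control. FOXO4 stood 0.97 above control there.

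Genes of protein turnover were led by CDC20 and CKS1B. CDC20, an activator of the anaphase-promoting complex, fell by 2.10 in shRRM2 against control and its log2 fold change was -1.47 in shRRM2/shp16 against control. CKS1B, the cofactor with which SKP2 marks p27 for destruction, fell by 1.46 in shRRM2 against control, the comparison in which CDKN1B RNA also fell. FBXW7, the receptor for cyclin E, rose by 0.42. DTL, which directs destruction of p21 in S phase, fell by 0.93 in shRRM2/shp16 against shRRM2 and by 1.28 against control. KCNQ1OT1, the antisense RNA of the imprinted domain that holds CDKN1C, was at 91.0 ± 3.76 CPM in control, 215 ± 4.48 in shRRM2 and 137 ± 4.61 in shRRM2/shp16. It rose by 1.24 with the RRM2 hairpin and fell by 0.65 with the p16 hairpin added, while CDKN1C had 2 to 13 reads per library.

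The nearest tested protein-coding genes on either side were read to see whether the changes belonged to a wider stretch. FAF1, whose start lies 482 bases from CDKN2C on the opposite strand, fell by 0.80 in shRRM2 against control, where CDKN2C fell by 2.01, and by 0.11 in shRRM2/shp16 against shRRM2 (edgeR, adjusted p = 0.0477), where CDKN2C rose by 0.65. KRI1, 425 bases from CDKN2D on the same strand, fell by 0.72 and then rose by 0.66, beside a fall of 1.30 and a rise of 0.46 for CDKN2D. RNF11, on the other side of CDKN2C, rose by 0.16 and then fell by 0.17, opposite in sign to CDKN2C. CREBL2, beside CDKN1B, fell by 0.35 and then rose by 0.29, and like CDKN1B it did not pass in shRRM2/shp16 against control (edgeR, log2 difference -0.06, adjusted p = 0.376). APOLD1, on the other side of CDKN1B, fell by 0.26 and again by 0.27. SRSF3, beside CDKN1A at 70860 bases, fell by 0.75 with the RRM2 hairpin, while CDKN1A rose, and PPIL1 on its other side fell by 0.33 and then by 0.58. SLC44A2, the other neighbour of CDKN2D, fell by 0.18 with the RRM2 hairpin and did not pass with the p16 hairpin added (edgeR, adjusted p = 0.175). Beside CDKN1C, TSSC4 fell by 0.23 with the RRM2 hairpin, and SLC22A18 rose by 0.95 in shRRM2/shp16 against control. DMRTA1, beyond CDKN2B, passed in none of the 3 comparisons (edgeR, adjusted p = 0.115 to 0.522). CNIH1, 3342 bases from CDKN3, fell by 0.14 and rose by 0.25, against -2.18 and 0.68 for CDKN3. BMP4, 438088 bases from CDKN3 on its other side, fell by 0.66 and rose by 1.80.

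The genes most like each inhibitor were found by Pearson's r of log2 CPM over the 9 libraries among 11401 genes, as a description that mostly reflects the 3 group means. CDKN1A was most like PAMR1 (r = 0.997), CLDN1 (0.997) and FRY (0.996). CDKN1B was most like RCC2 (0.994), YY1 and HNRNPA0, CDKN2B was most like UBN2 (0.991) and ECM1, and CDKN2A was most like FAM57A (0.983), MFSD1 and MAPKBP1. CDKN2C was most like CDC20 (0.999), PCNT and NCAPD2, CDKN2D was most like C19orf43 (0.996), SNHG12 and PPP2R5D, and CDKN3 was most like EIF4G2 (0.998), CKAP2 (0.996) and CDKN2C (0.996).

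The authors' deposited table compares shRRM2/shp16 with shRRM2, and marks 7.77% of the 64235 genes that have a p-value there significant. Only 16561 genes passed the filter on low counts here, so 7.77% is not a like background for the 8 genes. Of the 8 genes, 4 are so marked in the authors' deposited table: CDKN1B with a log2 fold change of 0.72 (q = 4.44e-04), CDKN2C with 0.64 (q = 4.44e-04), CDKN2D with 0.42 (q = 0.00855) and CDKN3 with 0.89 (q = 0.0182). The authors' deposited table gives -0.55 for CDKN2A (q = 0.237), 0.31 for CDKN2B (q = 0.511) and 0.65 for CDKN1C (q = 0.363), none of them marked. The entry of CDKN1A in the authors' deposited table is a change of 0 and q = 1 beside group values of 461 and 331, so no change can be read from it. The columns headed log2 RPKM in that table hold log2(RPKM / 1000 + 1), as calculated back from the counts, a compressed scale on which differences are not log2 fold changes. The column for shRRM2 replicate c does not match the deposited counts of the same library: CDKN1A is at 242 RPKM in the column and 324 from the counts, CDKN3 at 7.36 and 3.47, CDKN2C at 4.62 and 3.25, and CDKN1B at 10.7 and 8.92. The counts were used throughout. With limma on the deposited columns, on that compressed scale, CDKN1A (adjusted p = 0.0571) and CDKN3 (adjusted p = 0.421) did not pass in shRRM2/shp16 against shRRM2, and both passed when that column was left out (limma, adjusted p = 1.40e-07 and 0.00422).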

How the data were processed

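The authors deposited 1 file of raw counts by Ensembl gene identifier per library, in the layout of HTSeq per the file headers. TopHat2 2.0.9, Cufflinks 2.0.2, Cuffdiff and GRCh38 are named by the submitters' processing notes without roles. How strand was treated and which annotation was counted are not given in the sources used here. Libraries were stranded and depleted of ribosomal RNA, per the labels' protocols. The authors also deposited a table of log2 RPKM values per library, with group FPKM values, a log2 fold change, a test score, and a p-value with its q-value, per the file headers; these compare shRRM2/shp16 with shRRM2. The log2 RPKM columns hold log2(RPKM / 1000 + 1), as calculated back from the counts. That of shRRM2 replicate c did not match its counts, while the other 8 columns did. There were 0 columns of no sample.

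Closing tally lines were left out of library totals. Counts were filtered by filterByExpr, scaled by TMM and tested with edgeR 4.0.16 (R 4.3.3), with all 9 libraries in 1 quasi-likelihood fit, 6 residual degrees of freedom and two-sided tests adjusted by Benjamini-Hochberg over 16561 genes. SE is the size of the log2 fold change over the root of F. RPKM is CPM per kilobase of merged GENCODE 29 exons. The pipeline was tested on simulated counts. Reads carry no molecular identifiers, so counting alone understates the error.

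The 8 genes, the lists and the tests were chosen with earlier results of these data known. All 8 are named. From the partner and regulator lists, the 3 highest and 3 lowest called log2 fold changes whose mean log2 CPM is 2 or more are named per comparison, along with the E-type and D-type cyclins as a group. CDK2, CDK4 and FOXO1 were named after their values were seen. The genes labelled as repressors are all listed by name. Some genes that these rules would name are not reported here. Alternatives were RLE size factors, DESeq2 1.42.0, other count filters, the libraries compared only, a replicate block, leaving out each library, and limma 3.58.1 on the deposited log2 columns and on log2(RPKM + 0.1).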

Additional observations from a re-analysis of the deposited data

How the results depend on the processing

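Of 450 values of the inhibitor genes under other settings, 428 kept their direction and call, 14 kept their direction and lost the call, 2 gained one and 6 changed sign, none of these called. The difference of CDKN1B between shRRM2/shp16 and control, -0.07 by edgeR, was 0.0275 by limma on log2(RPKM + 0.1) and 0.000389 under the 4 limma settings on the deposited columns. Those columns hold log2(RPKM / 1000 + 1), so their differences are compressed. For CDKN1C, unfiltered fits without each library were added after seeing the data, and shRRM2 against control was -0.0357 without control replicate b (0.16 with it). The 7 tested genes kept their call under every alternative on counts that was run, leaving out each library included. All other losses and gains were in CDKN1C, with 2 to 13 reads, or under limma. On the deposited columns CDKN1A lost its call in shRRM2/shp16 against shRRM2 (adjusted p = 0.0571), as did CDKN3 (adjusted p = 0.421), and both were called without the mismatched shRRM2 replicate c column (adjusted p = 1.40e-07 and 0.00422). CDKN2A gained a call in shRRM2 against control without that column (adjusted p = 0.0325). With all values kept, CDKN2A lost its call against shRRM2 (adjusted p = 0.0834) and control (adjusted p = 0.175), and limma called 4 inhibitor genes in shRRM2/shp16 against shRRM2 where edgeR called 7; the cause was not tested. With the replicate letter as a block, 6, 7 and 6 inhibitor genes were called, as without it, 13, 13 and 12 partners, and 27, 26 and 26 regulators, where 26, 27 and 26 were called without it. The balance of regulators in shRRM2/shp16 against control depended on the method. It was 10 higher and 16 lower by edgeR, 14 and 10 by limma on the deposited columns, and 16 and 11 without the mismatched column. Partners in shRRM2/shp16 against shRRM2 were 6 higher and 7 lower by edgeR, and 3 and 7 by limma on the deposited columns. Without the mismatched column they were 6 and 7 again. The letters are not shown to pair the samples, since same-letter deviations correlated by -0.020 to 0.049. Depth limits CDKN1C most, and CDKN2A next, at 79 to 142 reads.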
